A study of Mus musculus with 18 samples.

Results

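Chronic hypoxia in the lung of wild type mice was examined by comparing 3 libraries of animals kept in hypoxia with 3 of animals kept in normoxia. These 6 libraries were chosen by their labels from the 18 libraries of a study that also exposed 2 β-arrestin knockout lines. All 6 came from whole lung of male C57BL/6 mice carrying no engineered allele, aged 8 to 12 weeks when exposure began, and the tissue is labelled with an age of 12 to 16 weeks. Exposure lasted 4 weeks: the normoxia group breathed air at ambient altitude (oxygen pressure, written as PAO2 in the labels, of about 150 mmHg), and the hypoxia group breathed air at the pressure of 18000 feet (about 70 mmHg). The libraries of each group are numbered 0, 1 and 2. Nothing in the labels says that each library stands for 1 animal, so every p-value measures the spread between libraries.

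Lack of oxygen stabilises the hypoxia-inducible factors HIF-1α and HIF-2α, which bind short promoter and enhancer elements and switch on genes of glycolysis, glucose uptake and vessel growth. In the lung, low oxygen also narrows the small arteries. Weeks of exposure thicken their muscular walls and raise the pressure in the pulmonary circulation, which is why hypoxic rodents are used as a model of pulmonary hypertension. Endothelial cells of the lung fall into several kinds (general capillary cells, the large flat capillary cells called aerocytes, and arterial, venous and lymphatic cells), each with its own marker genes.

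The 6 libraries held 21145435 to 25484889 estimated fragments each. Correlation of log2 CPM (fragment counts scaled to library size) between libraries was 0.983 to 0.9893 within normoxia, 0.9813 to 0.9871 within hypoxia and 0.9563 to 0.9787 between the groups. Markers of lung tissue were abundant in every library: Ager of alveolar type 1 cells had 72731 to 86625 fragments and Sftpb of alveolar type 2 cells had 59248 to 77515. Markers of tissue around the gas-exchanging lung differed between the groups. Normoxia replicate 1 stood apart, with 16 fragments of Myh6, the heart muscle myosin, against 2322 and 2512 in the other normoxia libraries and 11276, 6914 and 15993 in hypoxia. Of 31 cardiac muscle genes, which in mice are also expressed in the muscle sleeve of the pulmonary veins, 29 were higher in every hypoxia library than in every normoxia library, with a median log2 difference of 2.44, although 0 passed the edgeR test (25 had an unadjusted p below 0.05, DESeq2 called 2, and edgeR on the wild type libraries alone called 9). Of 24 club and secretory airway genes 16 were higher in every hypoxia library and 1 lower, and of 14 adipocyte genes 9 were higher and 2 lower (median 0.94), with 8 and 1 passing the test (Scgb3a1 at 94, 307 and 333 fragments in normoxia against 8040, 10056 and 16919; Adipoq at 7, 23 and 42 against 93, 122 and 110). Adipoq was not among the genes called. Over all genes tested, 4.76% passed the test and the groups did not overlap for 24.7%. The mean score of these 3 lists, called the tissue score here, was -1.40, -2.14 and -1.05 in normoxia replicates 0, 1 and 2 and 0.43, 0.43 and 0.85 in hypoxia. The groups did not overlap in it, and the other 12 libraries of the study ran from -1.27 to 1.84. Whether these marker differences come from the tissue sampled or from the exposure cannot be told apart in the wild type libraries alone, so results are also given with the tissue score as a covariate, fitted over all 18 libraries, and without normoxia replicate 1. Markers of cartilage, liver and skeletal muscle, and Krt13 and Krt4 of oesophagus, had at most 24 fragments in any of the 6 libraries. Krt5, a marker of oesophagus and trachea, had 0 fragments in each normoxia library and 2, 18 and 46 in hypoxia. The thymus marker Rag1 had 1, 0 and 0 fragments in normoxia and 30, 1 and 15 in hypoxia, and Dntt had 1, 1 and 1 against 7, 1 and 6. Tubb3, a neuronal tubulin, was uneven within both groups, at 1079, 13 and 995 fragments against 23, 37 and 2266. Of the blood markers, Hba-a1 had 32, 2304 and 2216 fragments in normoxia and 1381, 1129 and 620 in hypoxia. Alas2 had 401, 1055 and 1125 against 731, 603 and 412, so normoxia replicate 0 was lowest in both genes.

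Of 15388 genes tested, 733 (4.76%) differed between hypoxia and normoxia at an adjusted p below 0.05 (edgeR's quasi-likelihood test, Benjamini-Hochberg adjustment, as for every adjusted p here). They comprised 438 genes (2.85%) higher in hypoxia and 295 (1.92%) lower. The median log2 change was 1.01 among the former and -0.72 among the latter, against 0.002 over all genes tested. A change of at least 1 on the log2 scale was found for 220 of the genes called higher and 92 of those called lower. The groups did not overlap in CPM for 711 of the 733 called genes and for 3804 (24.7%) of all genes tested. Without normoxia replicate 1 the count was 209 of 15535 genes (1.35%). With the tissue score as covariate it was 59 of 15388 (0.383%), of which 36 were higher and 23 lower; all 733 genes kept their direction, the median ratio of the 2 log2 changes was 0.878, and the median SE went from 0.18 to 0.238. Of the 733 genes, 177 (95 higher, 82 lower) were also called in all 6 of the fits that left out 1 wild type library. These 177 are described below as held. Of the held genes, 50 were also called with the tissue score. A gene below that is not said to be called with the tissue score was not. The shares over all genes (2.85% called higher, 1.92% called lower, 24.7% with groups apart) are the comparison for every list count below.

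**Figure D1:**
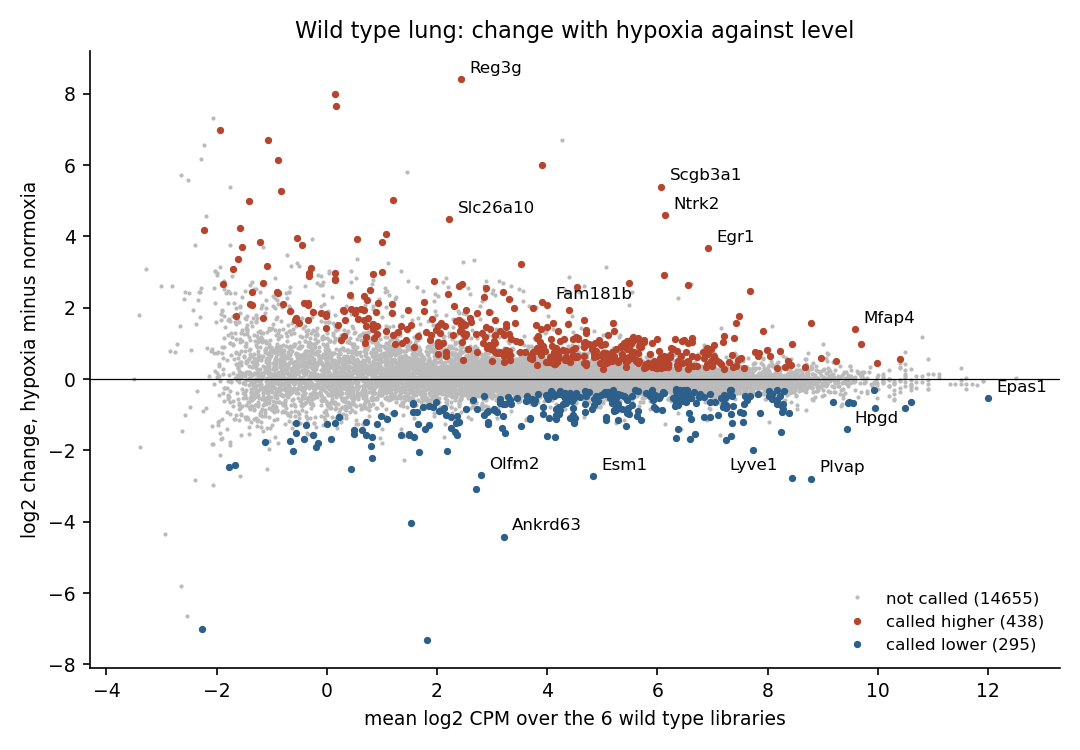
Log2 change (hypoxia minus normoxia, y axis) of all 15388 genes tested against their mean log2 CPM over the 6 wild type libraries (x axis); points in colour are the 438 genes called higher and the 295 called lower. Plvap, Lyve1 and Hpgd lie among the abundant genes that fell, and the changes above 4 belong mostly to genes of low mean level.

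Genes of the classical response to low oxygen were called in both directions after 4 weeks. Of 36 tested targets of the hypoxia-inducible factors and glycolytic genes, 4 were called higher and 2 lower, with a median of 0.15, where 2.85% and 1.92% of all genes were called. Vegfa, the main growth factor of endothelium, had 916, 920.4 and 844 CPM in normoxia and 825, 833 and 848 in hypoxia, a log2 change of -0.10 ± 0.12 (SE) with overlapping groups (adjusted p = 0.755). Pdk1, which keeps pyruvate out of mitochondria, stood at 40.5, 35.8 and 36.5 CPM against 38.6, 41.2 and 47.3 (0.17 ± 0.13, adjusted p = 0.537). Neither gene passed the test.

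The largest difference in this list was a fall. Hilpda, which coats lipid droplets and slows their breakdown, fell from 164, 139 and 130.1 CPM to 43.8, 55.4 and 39.4, a log2 change of -1.64 ± 0.25 (adjusted p = 0.00207). Every hypoxia library was below 56 CPM, and the call held. Stc1, a secreted glycoprotein, also fell and held, from 9.22, 11.7 and 14 CPM to 3.35, 5.08 and 6.77 (-1.20 ± 0.25, adjusted p = 0.0125). Aldoc, an aldolase of glycolysis, rose from 3.35, 3.54 and 4.42 CPM to 6.26, 9.02 and 7.99 (1.04 ± 0.17, adjusted p = 0.00345), and its call held as well. The remaining rises were smaller or less firm. Slc2a1, the glucose transporter GLUT1, rose by 0.53 ± 0.15 (adjusted p = 0.0478), a call lost whichever library was left out (adjusted p = 0.0598 to 0.203) and at 0.34 with the tissue score. Bhlhe40, a repressor of transcription, rose by 1.05 ± 0.24, lost without any of the normoxia libraries or hypoxia replicate 2 (adjusted p up to 0.119). Pfkl, a phosphofructokinase, rose by 0.59 ± 0.16 with overlapping groups, and was called only with all libraries or without hypoxia replicate 1 (adjusted p up to 0.23 without one of the others). With the tissue score 0 of the 36 were called, the change of Hilpda being -1.29 (adjusted p = 0.121) and that of Aldoc 1.03 (adjusted p = 0.102).

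Promoters of this list were searched for the core of the hypoxia response element, ACGTG on either strand, from 250 bases before to 50 after the start of transcription (RefSeq, GRCm38.p6). Of 31 members with a promoter in the table, 22 (71%) held it, against 3360 of 12050 tested genes (27.9%). Among the called members 3 of 4 held it: Hilpda, which fell, Slc2a1, which rose, and Aldoc, whose match lies 28 bases into the transcript. The 150 bases before a transcript start are shown for Hilpda, which fell, and Slc2a1, which rose, with the core in capitals. The match lies 43 and 36 bases before the start used. These stretches lie at chr6:29272476-29272625 (plus strand) and chr4:119108595-119108744 (plus strand). The Hilpda gene as annotated begins at 29272488, so its stretch lies mostly inside the gene. That of Slc2a1 ends just before its gene, so the 2 distances are not from like starts.
Hilpda: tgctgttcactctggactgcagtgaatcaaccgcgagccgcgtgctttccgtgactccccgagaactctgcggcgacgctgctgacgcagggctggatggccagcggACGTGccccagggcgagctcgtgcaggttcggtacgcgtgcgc
Slc2a1: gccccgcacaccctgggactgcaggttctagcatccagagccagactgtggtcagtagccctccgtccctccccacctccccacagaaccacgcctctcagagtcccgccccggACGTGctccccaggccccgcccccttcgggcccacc
A match of these letters is a description of the sequence and not evidence of binding.

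The prolyl hydroxylase genes Egln1 and Egln3 were counted on the target list above. Among 10 other genes of the oxygen-sensing machinery (the factors themselves, the prolyl hydroxylase gene Egln2 and partners), 0 were called higher and 1 lower (against 1.92% of all genes). The one that fell was Epas1, the gene of HIF-2α and the called gene of highest mean FPKM (708), with 5347, 4969 and 4290.3 CPM in normoxia and 3839, 3732 and 2559 in hypoxia (-0.53 ± 0.14, adjusted p = 0.0375). Its groups did not overlap. The call was lost without normoxia replicate 0 or 1 (adjusted p = 0.13 for each) or hypoxia replicate 1 (0.052) or 2 (0.112). In the authors' deposited table Epas1 is not called (q = 0.19). Hif1a, the gene of HIF-1α, stood at 71.4, 71.4 and 74 CPM against 93.8, 83.1 and 69.4 and did not pass (0.18 ± 0.17, adjusted p = 0.638). Of 11 carbonic anhydrases, which interconvert carbon dioxide and bicarbonate, Car14 rose from 33, 32.8 and 26.1 CPM to 57.8, 62.2 and 70.7 (1.05 ± 0.15, adjusted p = 0.00119), held in every fit with 1 library left out, while Car4 of the capillary wall did not pass (-0.13 ± 0.11, adjusted p = 0.58).

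Capillary endothelium held some of the steepest falls of abundant genes. Of 27 general capillary genes 2 were called higher and 4 lower (against 2.85% and 1.92% of all genes), with a median of -0.27. Every hypoxia library was lower for 14 and higher for 3, where the groups did not overlap for 24.7% of all genes. In bulk tissue, fewer cells of a type cannot be told apart from less RNA per cell. Pecam1 and Cdh5, markers of all endothelial cells and members of the general capillary list, were looked up outside the rule for named genes. They did not pass, with log2 changes of -0.03 ± 0.11 (adjusted p = 0.933) and -0.02 ± 0.19 (adjusted p = 0.972). They were picked from the 27 genes, of which 6 had a positive change, and do not stand for endothelium as a whole. Pecam1 had 1278, 1172 and 1221 CPM in normoxia and 1261, 1267 and 1067 in hypoxia.

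Plvap (chromosome 8, 71497753 to 71511806) encodes the protein of the diaphragms that span endothelial caveolae and fenestrae. It stood at 1221, 1096 and 1232 CPM in normoxia and at 145, 229 and 138 in hypoxia (adjusted p = 1.96e-05), so the highest hypoxia library was far below the lowest normoxia library. Esm1, a proteoglycan secreted by endothelium, fell from 59.4, 95.8 and 69.6 CPM to 8.69, 16 and 9.52 (-2.72 ± 0.26, adjusted p = 3.84e-05). Hpgd, the enzyme that inactivates prostaglandins, fell from 1248, 1114 and 1053 CPM to 536, 458 and 299 (-1.40 ± 0.18, adjusted p = 0.000617). These 3 genes held, and all were also called with the tissue score, at -2.59, -2.28 and -1.10 (adjusted p = 0.00166, 0.0038 and 0.0486).

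Other capillary genes moved less or were less firm. Eng, endoglin, a co-receptor of BMP9 on endothelium, fell from 963, 890.0 and 839 CPM to 594, 637 and 494 (-0.64 ± 0.16, adjusted p = 0.0302), a call lost without normoxia replicate 0 (0.0971) or 1 (0.0876) or hypoxia replicate 2 (0.119), and at -0.42 with the tissue score (0.521). Sema3c, a guidance molecule, rose from 692, 528 and 585 CPM to 1565, 1072 and 934 (0.98 ± 0.21, adjusted p = 0.0136), lost without normoxia replicate 1 (0.0898). Emcn, a surface sialomucin, rose from 73.7, 55.6 and 75 CPM to 124, 101 and 183 (1.00 ± 0.22, adjusted p = 0.0157), lost without normoxia replicate 1 (0.0987) or hypoxia replicate 2 (0.0818). Of the capillary markers Gpihbp1, which anchors lipoprotein lipase, and Cd93 neither passed, although both were lower in every hypoxia library (-0.55 ± 0.23, adjusted p = 0.192, and -0.51 ± 0.15, adjusted p = 0.062). An edgeR fit of the wild type libraries alone called Gpihbp1 (adjusted p = 0.0249) but not Cd93 (0.125). The authors' deposited table calls both lower (q = 0.00494 and 0.027). Among 13 aerocyte genes 0 were called higher and 2 lower. Fibin fell from 178, 198 and 161 CPM to 80.8, 56.3 and 47.3 (-1.54 ± 0.23, adjusted p = 0.00128) and held, but not with the tissue score (-0.88, adjusted p = 0.0674). Ednrb, the endothelin B receptor, fell from 237, 190.2 and 168 CPM to 119, 116 and 62, that is by 1.00 ± 0.21 on the log2 scale (adjusted p = 0.0124), lost without normoxia replicate 0 (0.0588).

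**Figure D2:**
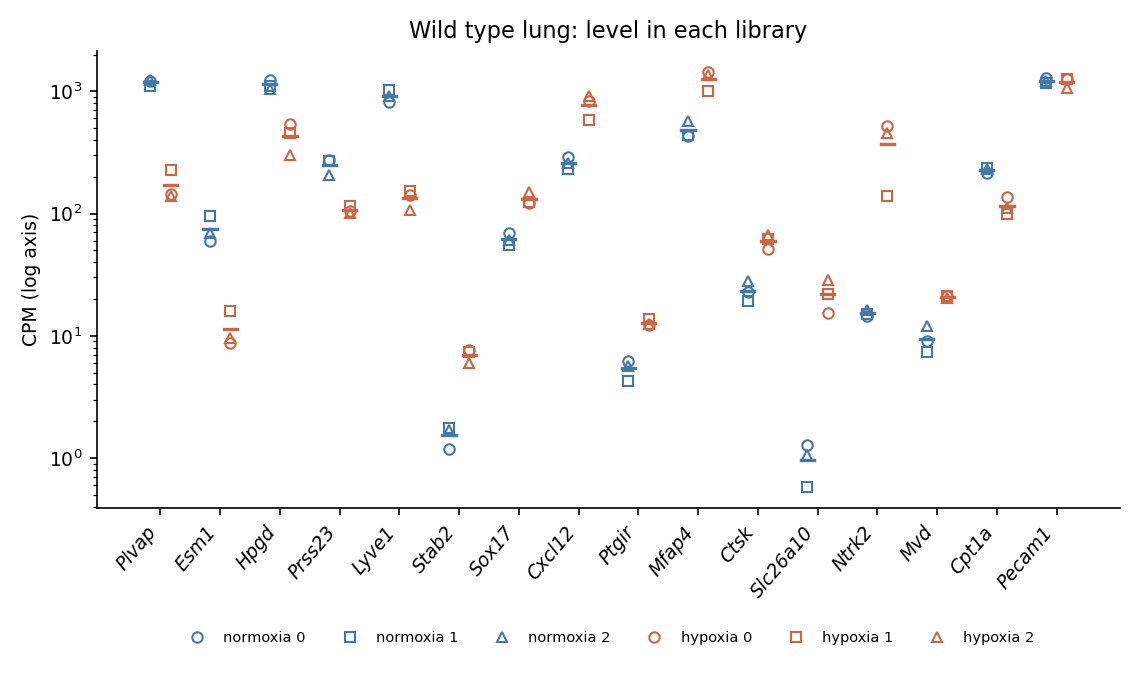
CPM (log axis) of 16 genes in each library of wild type normoxia (blue) and hypoxia (orange); symbols are replicates 0, 1 and 2 and bars are group means. The groups are apart for every gene shown except Pecam1, whose libraries lie between 1067 and 1278 CPM.

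Arterial genes were called in both directions. Of 20 tested, 8 were called higher and 2 lower, with a median of 0.22, where 2.85% of all genes were called higher. Without normoxia replicate 1 the counts were 6 and 2. Sox17, a transcription factor of arterial identity, had 69.4, 55.5 and 60.9 CPM in normoxia and 121, 125 and 149.9 in hypoxia (adjusted p = 9.28e-05). Gja4, the gap junction protein connexin 37, rose from 92.8, 45.8 and 62.5 CPM to 146, 145 and 158 (1.16 ± 0.21, adjusted p = 0.00532). Unc5b, a netrin receptor, rose from 38.5, 34.4 and 32.1 CPM to 66.2, 71.3 and 82.2 (1.07 ± 0.15, adjusted p = 0.000815).

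In each of these 3 the groups were apart and the call held. Vegfc, the growth factor of lymphatic vessels, rose from 33.8, 36.7 and 28.2 CPM to 77.5, 55.7 and 62.2 (0.99 ± 0.17, adjusted p = 0.00456) and held. Hey2, a Notch target, rose from 6.1, 7.22 and 4.51 CPM to 15.1, 11.1 and 9.4 (1.00 ± 0.21, adjusted p = 0.0124) and held. Cxcl12, a chemokine of arterial and stromal cells, rose from 288, 233 and 260.0 CPM to 831, 578 and 907 (1.57 ± 0.30, adjusted p = 0.00799), lost without normoxia replicate 1 (0.0559). Sox17, Unc5b and Vegfc were the 3 called with the tissue score (adjusted p = 0.00798, 0.0479 and 0.0168). A pair of arterial Notch and ephrin ligands went the other way. Efnb2 fell from 384, 438 and 431 CPM to 225, 258 and 213 (-0.85 ± 0.15, adjusted p = 0.00579) and held, and Dll4 fell from 197, 153 and 157 CPM to 84.2, 108 and 53.2 (-1.05 ± 0.21, adjusted p = 0.0102), lost without normoxia replicate 0 (0.0503). Gja5, connexin 40, did not pass (0.19 ± 0.15, adjusted p = 0.539).

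Venous genes were called in 1 direction. Of 11 tested, 0 were called higher and 3 lower (against 1.92% of all genes called lower), with a median of -0.63. In 7 every hypoxia library was lower, where the groups did not overlap for 24.7% of all genes. Prss23, a serine protease, fell from 272, 270.3 and 207 CPM to 105, 116 and 101 (-1.22 ± 0.13, adjusted p = 0.000128). Slc6a2, the noradrenaline transporter, fell from 317, 281 and 262 CPM to 117, 105 and 41.8 (-1.70 ± 0.28, adjusted p = 0.00347). Vcam1, an adhesion molecule for leukocytes, fell from 139.7, 105 and 153 CPM to 67.7, 65.3 and 74.4 (-0.94 ± 0.13, adjusted p = 0.00092). All 3 held, and Prss23 was also called with the tissue score (-1.17, adjusted p = 0.0143). Vwf, von Willebrand factor, did not pass (-0.33 ± 0.16, adjusted p = 0.285).

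Lymphatic markers were split: of 11 tested, 4 were called higher and 1 lower. Lyve1 (chromosome 7, 110850607 to 110862953), a hyaluronan receptor of lymphatic endothelium and of some macrophages, went from 816, 1033 and 913 CPM to 142, 153 and 107 and had the smallest adjusted p of any gene that fell (2.69e-07). The other lymphatic calls were rises. Reln, a secreted glycoprotein, rose from 13.4, 11.8 and 11.7 CPM to 46.8, 36.3 and 24.1 (1.54 ± 0.20, adjusted p = 0.000449), and Mmrn1, multimerin 1, rose from 32.9, 40.1 and 30.3 CPM to 104, 75.6 and 48.6 (1.14 ± 0.20, adjusted p = 0.0042). Thy1, a surface glycoprotein also of T cells and fibroblasts, rose by 1.04 ± 0.19 (adjusted p = 0.00551). Lyve1, Reln, Mmrn1 and Thy1 held, and the first 3 were also called with the tissue score. Prox1, the transcription factor that specifies lymphatic endothelium, rose from 1.05, 0.861 and 1.24 CPM to 5.52, 5.08 and 3.1 (2.11 ± 0.56, adjusted p = 0.0427), but this call was lost whichever library was left out (0.0618 to 0.174) and with the tissue score (0.78, adjusted p = 0.75). Stab2, a scavenger receptor for hyaluronan on sinusoidal endothelium that was on no list, rose from 1.19, 1.77 and 1.68 CPM to 7.65, 7.32 and 6.04 (2.17 ± 0.23, adjusted p = 9.52e-05), held, and was called with the tissue score (2.00, adjusted p = 0.0143). The 2 hyaluronan receptors Lyve1 and Stab2 thus moved in opposite directions, from very different levels.

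**Figure D3:**
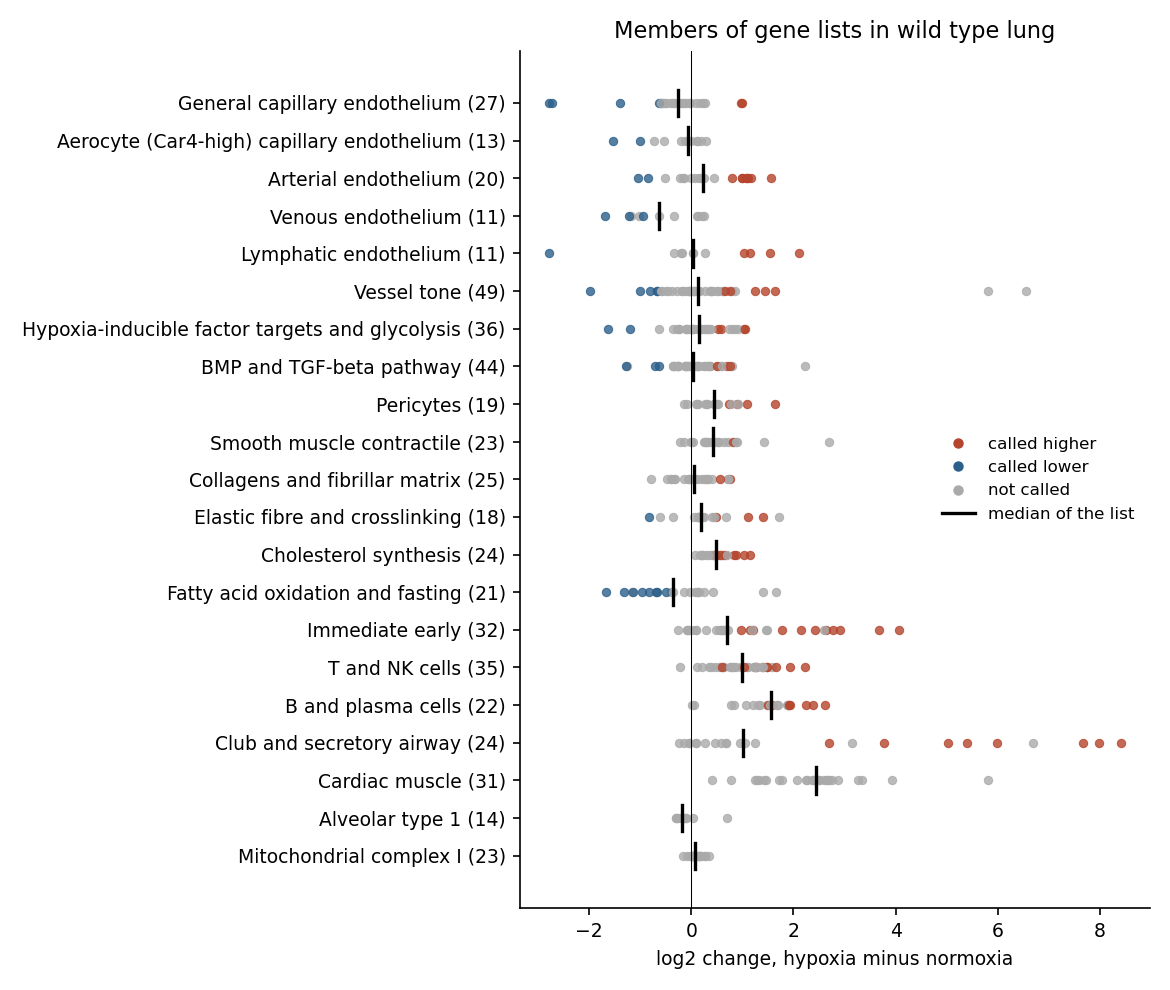
Log2 change (hypoxia minus normoxia, x axis) of each tested member of 21 gene lists (y axis, number tested in parentheses), coloured by call, with the list median as a black bar. Venous genes have a median of -0.63 and cardiac muscle genes one of 2.44 with no call.

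Genes of vessel tone were called in both directions, 5 higher and 5 lower of 49 tested (against 2.85% and 1.92% of all genes), with a median of 0.13. Ptgir, the receptor of the vasodilator prostacyclin, rose from 6.24, 4.3 and 5.66 CPM to 12.3, 13.7 and 12.4 (1.24 ± 0.17, adjusted p = 0.000815), with every hypoxia library above every normoxia library. It held, and was the member of this list called with the tissue score (1.19, adjusted p = 0.0468). Ptgs1, cyclooxygenase 1, fell from 119.6, 141 and 134 CPM to 88.5, 87 and 73.1 (-0.67 ± 0.13, adjusted p = 0.00727). Ece1, the enzyme that cleaves endothelin to its active form, fell from 961, 780.0 and 931 CPM to 553, 635 and 497 (-0.67 ± 0.13, adjusted p = 0.00744). Both held, but with the tissue score they went to -0.40 and -0.49 (adjusted p = 0.333 and 0.261). The peptide itself and its vasoconstrictor receptor did not pass: Edn1 stood at 79.8, 102 and 84.5 CPM against 119, 81.9 and 57.3 (-0.04 ± 0.26, adjusted p = 0.964) and Ednra changed by -0.03 ± 0.10 (adjusted p = 0.923). Both groups overlapped.

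Calls of Npr3 and Nos2 were less firm. Npr3, the clearance receptor of natriuretic peptides, fell from 537, 445 and 357 CPM to 83.2, 190.0 and 66.4 (-1.98 ± 0.43, adjusted p = 0.0159), lost without normoxia replicate 0 (0.0572) or 1 (0.0538) or hypoxia replicate 2 (0.0744). Nos2, inducible nitric oxide synthase, rose by 1.45 ± 0.35 (adjusted p = 0.0284), lost in 4 of the 6 fits with 1 library left out (0.0596 to 0.123). The natriuretic peptides Nppa and Nppb, products of heart muscle looked up after their values were seen, were listed at up to 0.795 CPM and at 0 in normoxia and at 10.9 to 27.9 and 0.169 to 0.879 CPM in hypoxia. They moved in the direction of the cardiac muscle list and did not pass (adjusted p = 0.123 and 0.0837). Nppa is itself on that list and so part of the tissue score. Nppa was called in an edgeR fit of the wild type libraries alone (5.81, adjusted p = 0.00424) and in the authors' deposited table (q = 0.00124).

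The BMP and TGF-β pathway includes the receptor BMPR2, the gene most often mutated in heritable pulmonary hypertension. The pathway had 3 of 44 genes called higher and 3 lower (against 2.85% and 1.92% of all genes), with a median of 0.03. Among its ligands, Bmp3, an antagonist within the BMP family, rose from 30.8, 33.1 and 33.1 CPM to 53, 52.9 and 50.1 (0.69 ± 0.09, adjusted p = 0.000505), with narrow groups far apart. Tgfb1, TGF-β1, rose from 79.2, 74.9 and 83.2 CPM to 107, 121 and 110.1 (0.51 ± 0.10, adjusted p = 0.0068). Ltbp2, a relative of the proteins that hold latent TGF-β in the matrix, rose from 192, 138 and 179.9 CPM to 308, 253 and 293 (0.75 ± 0.14, adjusted p = 0.00822), lost without normoxia replicate 1 (0.0639). Bmp3 and Tgfb1 held, and all 3 were called with the tissue score (0.65, 0.66 and 0.93; adjusted p = 0.0367, 0.0303 and 0.0486). Smad6, an inhibitor that BMP signalling itself induces, fell from 451, 392 and 362 CPM to 309.9, 234 and 192 (-0.71 ± 0.15, adjusted p = 0.0144), lost in 4 of the 6 fits with 1 library left out (0.0525 to 0.063). Bmpr2 varied within hypoxia, at 223, 123 and 71.2 CPM against 167, 148 and 186, and did not pass (-0.26 ± 0.40, adjusted p = 0.806), nor did Bmpr1a (-0.13 ± 0.14, adjusted p = 0.705).

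Mural cell genes had mostly positive changes: 17 of 19 for pericytes and 20 of 23 for smooth muscle. Of 19 pericyte genes 4 were called higher (against 2.85% of all genes) and 0 lower, with a median of 0.45. In 12 every hypoxia library was higher, where the groups did not overlap for 24.7% of all genes. Lamc3, a laminin chain, rose from 22.2, 24.7 and 16.8 CPM to 59, 39.3 and 36.9 (adjusted p = 0.00503) and held. Cspg4, the NG2 proteoglycan, rose from 42.8, 32 and 41.4 CPM to 66.3, 60.6 and 90.5 (adjusted p = 0.00711), lost without normoxia replicate 1 (0.0539). Notch3, the mural Notch receptor, rose by 0.74 ± 0.20 and Rgs5, a regulator of G protein signalling, by 1.64 ± 0.45 (adjusted p = 0.0418 and 0.0488), each lost whichever library was left out (0.065 to 0.195 and 0.0769 to 0.168). Without normoxia replicate 1 the pericyte count was 1, and with the tissue score it was 0 at a median of 0.55. Pdgfrb, the receptor that defines pericytes, did not pass (0.44 ± 0.13, adjusted p = 0.073).

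Of 23 contractile genes of smooth muscle, 1 was called higher (against 2.85% of all genes) and 0 lower, at a median of 0.42. In 13 every hypoxia library was higher, where the groups did not overlap for 24.7% of all genes. The called gene was Itga7, a laminin-binding integrin of muscle (0.81 ± 0.18, adjusted p = 0.0172), lost without normoxia replicate 0 (0.0726) or 1 (0.102) or hypoxia replicate 2 (0.0808), and 0.32 with the tissue score. Acta2, smooth muscle actin, had 292, 314 and 263 CPM in normoxia and 384, 300.4 and 480.4 in hypoxia, with overlapping groups (0.42 ± 0.24, adjusted p = 0.356). Myh11, smooth muscle myosin, had 202, 208 and 176 CPM against 353, 285 and 404 and missed the threshold (0.83 ± 0.25, adjusted p = 0.0747). In a fit of the wild type libraries alone Myh11 was called (0.82, adjusted p = 0.0232), as it is in the authors' deposited table (q = 0.00124). That fit called 6 of the 23 genes higher, and DESeq2 called 5. With the tissue score the median of this list was -0.07, and the changes of Acta2 and Myh11 were -0.21 and 0.16. The smooth muscle and cardiac lists share Actc1 and Pln, and the part of the airway and cardiac markers in these values was not tested beyond this fit.

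In the extracellular matrix, calls included parts of elastic fibres. Of 18 genes of elastic fibres and crosslinking 3 were called higher and 1 lower (median 0.19), against 2 and 0 of 25 collagens and fibrillar matrix genes (median 0.06), with 4.76% of all genes called. Mfap4, a glycoprotein of microfibrils and the called gene with the third highest mean FPKM (590.4), rose from 431, 436 and 569.7 CPM to 1451, 1008 and 1357 (1.41 ± 0.19, adjusted p = 0.000815). The lowest hypoxia library was well above the highest normoxia library, the call held, and with the tissue score the change was 1.61 (adjusted p = 0.0143). Fbln2, fibulin 2, rose from 31, 32 and 31.4 CPM to 54.4, 73.3 and 76.4 (1.11 ± 0.20, adjusted p = 0.00503) and held. Eln, elastin itself, did not pass, at 895, 579.9 and 972 CPM against 1261, 877 and 696 (0.21 ± 0.24, adjusted p = 0.714). The small proteoglycan Bgn and the vascular collagen Col8a1 rose by 0.56 ± 0.14 (adjusted p = 0.0285) and 0.76 ± 0.17 (adjusted p = 0.0161), lost in 4 and 3 of the 6 fits with 1 library left out (up to 0.125 and 0.0655).

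Matrix-degrading enzymes and their inhibitors were called 2 higher and 3 lower of 21, against 2.85% and 1.92% of all genes. Ctsk, cathepsin K, a collagenase of osteoclasts, fibroblasts and macrophages, rose from 22.7, 19.4 and 28 CPM to 51.4, 62 and 66.6 (1.36 ± 0.14, adjusted p = 9.28e-05), held, and was called with the tissue score (1.06, adjusted p = 0.0122). Mmp3, stromelysin 1, fell from 65.5, 66.7 and 81.4 CPM to 41.8, 33.1 and 29.1 (-1.04 ± 0.19, adjusted p = 0.00518) and held, but not with the tissue score (-0.66, adjusted p = 0.239). Mmp2, gelatinase A, rose by 1.03 ± 0.24 (adjusted p = 0.0249), lost in 4 of the 6 fits with 1 library left out (up to 0.11). Vim, vimentin of mesenchymal and endothelial cells, rose by 0.45 ± 0.12 (adjusted p = 0.043), lost in 5 of them (up to 0.183). The authors' deposited table does not call Vim (q = 0.0929).

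The cholesterol synthesis list had all of its members on one side. All 24 tested enzymes and regulators had a positive log2 change, with a median of 0.49. In 18 every hypoxia library was higher, where the groups did not overlap for 24.7% of all genes. Calls were 10 higher (against 2.85% of all genes) and 0 lower. The called genes lie along the pathway. Early in it, Hmgcs1, which makes HMG-CoA, rose from 103, 100.3 and 114 CPM to 157, 166 and 126 (0.50 ± 0.14, adjusted p = 0.0462), lost in 5 of the 6 fits with 1 library left out (0.0668 to 0.203). Mvd, mevalonate diphosphate decarboxylase, rose from 8.99, 7.41 and 12.1 CPM to 21.2, 21.2 and 20.3 and held (adjusted p = 0.00306). Fdps, which makes farnesyl diphosphate, rose from 6.56, 8.27 and 8.75 CPM to 15.4, 17.8 and 15.1 (1.03 ± 0.24, adjusted p = 0.0249), lost in 4 of the 6 fits (up to 0.102), and Sqle, squalene epoxidase, rose by 0.60 ± 0.12 (adjusted p = 0.0107), lost without normoxia replicate 0 (0.0597) or 1 (0.0539).

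Calls in later, sterol-modifying steps also held. Dhcr7 had 14.1, 11.7 and 13.6 CPM in normoxia and 21.3, 27 and 23.8 in hypoxia (adjusted p = 0.00347), and Cyp51, lanosterol demethylase, had 31.4, 30 and 36.7 against 60.6, 59.6 and 54.9 (adjusted p = 0.0041). Without normoxia replicate 1 the list had 4 calls and a median of 0.45, and with the tissue score 3 calls, Mvd and Fdps among them, and a median of 0.59. Srebf1, the transcription factor gene of fatty acid synthesis and the 1 call among 16 genes of that pathway, rose by 0.41 ± 0.10 (adjusted p = 0.0343), lost in 4 of the 6 fits with 1 library left out (up to 0.189). The authors' deposited table does not call Srebf1 (q = 0.161).

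The core of the sterol regulatory element, searched as CACCCCAC on either strand, was in 2 of 17 cholesterol promoters (11.8%) against 465 of 12050 tested genes (3.86%). Hmgcs1 was the called gene that held it, 136 bases before the start. The 150 bases before its start (chr13:119690201-119690350, plus strand, GRCm38.p6) are shown because it opens the pathway, with the match in capitals.
Hmgcs1: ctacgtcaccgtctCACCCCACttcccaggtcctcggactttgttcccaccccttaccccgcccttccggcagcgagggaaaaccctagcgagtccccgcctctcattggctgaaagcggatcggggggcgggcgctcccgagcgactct
The other called cholesterol genes with a promoter in the table lacked these letters in the window searched, which says nothing of regulation outside it.

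Of 21 genes of fatty acid oxidation and fasting, 0 were called higher and 8 lower, with a median of -0.35. Of the 21, 8 had a positive change and 3 were higher in every hypoxia library, and a fit of the wild type libraries alone called 2 higher and 6 lower. Cpt1a, which commits fatty acids to mitochondrial oxidation, fell from 213, 236 and 230.4 CPM to 136, 99.9 and 110.0 (-0.97 ± 0.12, adjusted p = 0.000449). The call held and was kept with the tissue score (-0.78, adjusted p = 0.0468).

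Ucp2, an uncoupling protein, fell from 883, 1015 and 921 CPM to 569.7, 584 and 611 (-0.68 ± 0.11, adjusted p = 0.00345), and Slc25a20, the carnitine carrier of mitochondria, from 51.5, 48.2 and 51 CPM to 34, 37.4 and 36.1 (-0.49 ± 0.09, adjusted p = 0.00598). Both held. Cd36, the fatty acid translocase of capillaries and macrophages, fell from 1905, 1907 and 1989 CPM to 1325, 1236 and 731 (-0.82 ± 0.17, adjusted p = 0.0122), lost without normoxia replicate 1 (0.0501). Angptl4, an inhibitor of lipoprotein lipase, fell from 171, 166 and 185 CPM to 63.6, 40.4 and 59.2 (-1.68 ± 0.37, adjusted p = 0.0178), lost without normoxia replicate 1 (0.0539) or hypoxia replicate 1 (0.0784) or 2 (0.0571), and at -0.94 with the tissue score (0.492). Acot1, an acyl-CoA thioesterase, fell by 1.14 ± 0.26 on the log2 scale (adjusted p = 0.0201), lost in 4 of the 6 fits with 1 library left out (up to 0.0856).

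Immediate early genes, which respond within minutes to growth factors, stretch or handling of tissue, were called higher in 11 of 32 cases and lower in 0, with a median of 0.69. Their level was uneven in hypoxia. The list score was -0.43, -0.48 and -0.53 in normoxia and 0.39, -0.33 and 1.29 in hypoxia, so hypoxia replicate 1 lay close to the normoxia libraries and replicate 2 far above them. Egr1, a zinc finger transcription factor, had 65.8, 34.3 and 23.9 CPM in normoxia and 432, 124 and 1023 in hypoxia (adjusted p = 0.0069). Arc had 0.596, 0.717 and 0.619 CPM against 6.13, 1.35 and 25.2 (4.07 ± 0.80, adjusted p = 0.00898). Fos and Junb, subunits of AP-1, rose by 2.64 ± 0.56 and 1.77 ± 0.40 (adjusted p = 0.0148 and 0.0202). None of the 11 calls held: without normoxia replicate 1 the list had 0 calls (Egr1 at 0.0507, Arc at 0.053, Fos at 0.0669, Junb at 0.0721), without hypoxia replicate 2 it had 3, and with the tissue score 0. The handling time of each lung is not given in the sources used here.

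Of 21 clock genes 2 were called higher (Bhlhe40, above, and Cry1) and 0 lower, where 2.85% of all genes were called higher. Cry1, a repressor of the clock, was uneven in hypoxia, at 62.4, 22.8 and 41.6 CPM against 18.7, 18.4 and 15.1 (1.28 ± 0.31, adjusted p = 0.0291), and was lost in 5 of the 6 fits with 1 library left out (up to 0.101). The E-box CACGTG, which contains the hypoxia response core, was in 5 of 17 clock promoters (29.4%) against 1332 of 12050 tested genes (11.1%). The promoter of Cry1 holds it 60 bases before the start (chr10:85185055-85185204, minus strand, GRCm38.p6) and is shown as the called clock gene with a match, the E-box in capitals.
Cry1: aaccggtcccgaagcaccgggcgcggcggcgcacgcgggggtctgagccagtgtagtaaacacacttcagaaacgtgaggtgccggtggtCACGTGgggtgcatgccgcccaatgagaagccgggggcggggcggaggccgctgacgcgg
Of 20 glucocorticoid-responsive genes 1 was called higher and 1 lower, against 2.85% and 1.92% of all genes (median -0.23). The higher one was Sgk1, a kinase that regulates sodium transport, at 190.5, 177 and 208 CPM in normoxia and 418, 250.2 and 348 in hypoxia (adjusted p = 0.00442), which held.

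Leukocyte genes were higher in hypoxia on several lists but not on all, with wide spread within each group. Ptprc, the leukocyte marker of the tissue check, had 880, 689 and 1417 fragments in normoxia and 1247, 2332 and 1956 in hypoxia. Its groups overlapped and it was not called. Median changes were -0.02 for dendritic cells, -0.21 for mast cells and basophils, and 0.05 for interstitial and perivascular macrophages and monocytes. Of 35 T and NK cell genes 10 were called higher and 0 lower (median 1.00), and of 22 B and plasma cell genes 8 and 0 (median 1.57). The B cell score was -0.82, -1.44 and -0.10 in normoxia and -0.13, 1.46 and 0.64 in hypoxia, so the groups overlapped, with normoxia replicate 1 lowest and hypoxia replicate 1 highest. Cd79a, of the B cell receptor, had 4.36, 2.49 and 8.79 CPM against 9.6, 44.7 and 20.5 (2.25 ± 0.53, adjusted p = 0.0243), and Faim3, the receptor of IgM, 1.79, 1 and 4.46 against 6.82, 25.4 and 12.7 (2.62 ± 0.57, adjusted p = 0.0157); both were lost without normoxia replicate 0 or 1 or hypoxia replicate 1 (up to 0.124 and 0.0868). Of the T cell genes, Cd8b1, of the cytotoxic T cell co-receptor, had 0.596, 0.335 and 1.37 CPM against 2.48, 4.44 and 4.01 (2.23 ± 0.40, adjusted p = 0.00532) and held, while Cd3e rose by 1.25 ± 0.25 (adjusted p = 0.0112), lost without normoxia replicate 0 (0.0586) or 1 (0.0721) or hypoxia replicate 1 (0.0561). The thymus markers Rag1 and Dntt, given above, were at 30 and 7 fragments in hypoxia replicate 0, 1 and 1 in replicate 1 and 15 and 6 in replicate 2, against at most 1 in normoxia, and the part of thymus tissue in these T cell values was not tested.

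Without normoxia replicate 1 the T and NK list had 2 calls and the B list 0, and with the tissue score both had 0. Of 20 neutrophil genes 2 were called higher (median 1.35), among them Cd177, from 2.75, 3.35 and 3.36 CPM to 8.13, 10.2 and 8.64 (1.51 ± 0.27, adjusted p = 0.00516), which held but was not called with the tissue score (0.84, adjusted p = 0.273). The neutrophil score was -1.25, -1.30 and 0.18 in normoxia and 0.44, -0.02 and 1.38 in hypoxia, so the groups overlapped. The alveolar macrophage list had 6 called higher of 24 (median 0.73). Of these Gpnmb, a lysosomal glycoprotein of lipid-laden macrophages, rose from 16.6, 14.9 and 22.8 CPM to 40.2, 39.3 and 29.6 (1.01 ± 0.17, adjusted p = 0.00345), held and was called with the tissue score (1.12, adjusted p = 0.0486), while Chi3l3, a chitinase-like protein, rose by 1.57 ± 0.37 (adjusted p = 0.0263) and was lost in 4 of the 6 fits with 1 library left out (up to 0.13).

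Among 39 cytokines, chemokines and adhesion molecules 7 were called higher and 2 lower (median 0.49). Ptx3, a secreted pattern recognition protein, rose from 2.38, 0.861 and 1.37 CPM to 13, 12.6 and 5.62 (2.75 ± 0.38, adjusted p = 0.00085), held and was called with the tissue score (2.58, adjusted p = 0.0485). Cx3cl1, the membrane-bound chemokine of endothelium, fell from 93.4, 81.5 and 79.5 CPM to 41.4, 57 and 43.6 (-0.84 ± 0.12, adjusted p = 0.00123) and held. The neutrophil chemokine Cxcl2 and the chemokine Ccl20 rested on hypoxia replicate 2. Cxcl2 stood at 0.695, 0.423 and 11.9 CPM in hypoxia and up to 0.183 in normoxia, and Ccl20 at 0.521, 0.55 and 9.86 against up to 0.335. Without that library the adjusted p was 0.118 and 0.51, and with the tissue score 0.32 and 0.683. Of 30 interferon-stimulated genes edgeR called 0 (6 at an unadjusted p below 0.05, 1 by DESeq2; median -0.15).

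**Figure D4:**
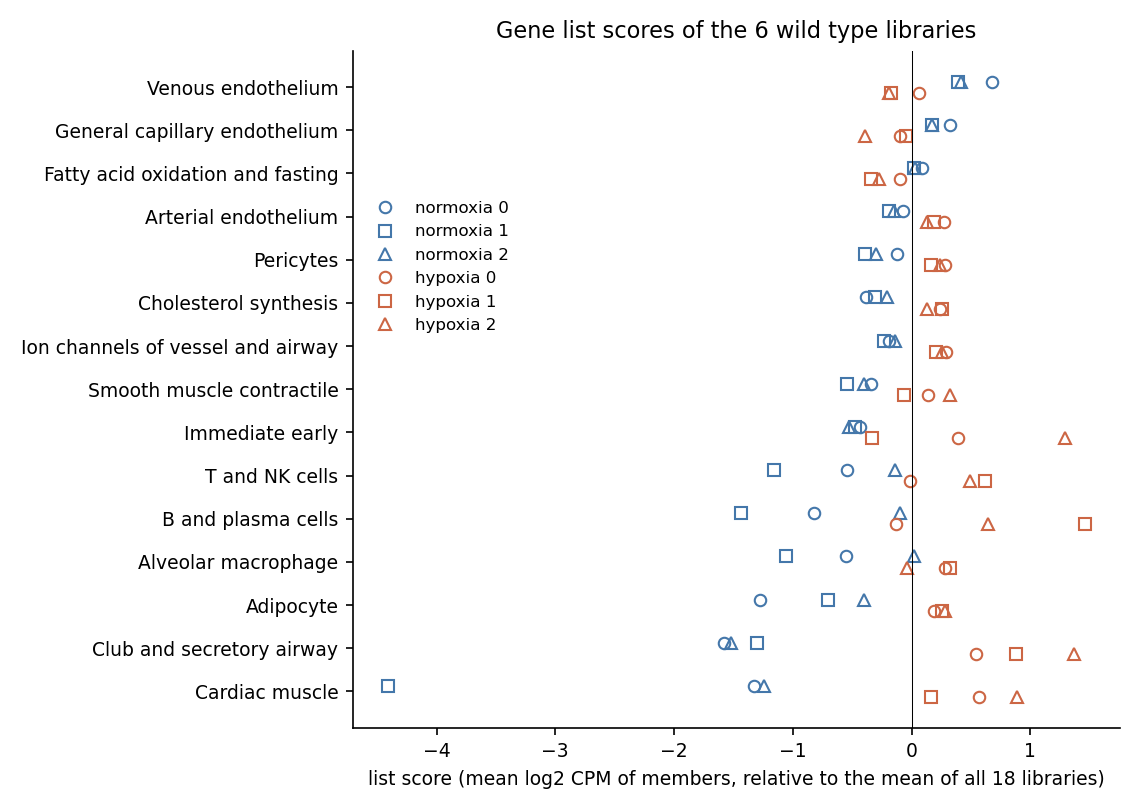
List score (mean log2 CPM of the members tested, relative to the mean of all 18 libraries, x axis) of 15 gene lists (y axis) in each wild type library; blue is normoxia, orange is hypoxia, and symbols are replicates 0, 1 and 2. The groups are apart for venous, arterial, pericyte and cholesterol genes and overlap for B and plasma cell and alveolar macrophage genes; normoxia replicate 1 is at -4.41 for cardiac muscle.

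Secretory airway genes had some of the largest rises among called genes. Of 24 club and secretory airway genes 8 were called higher and 0 lower, with a median of 1.01. Scgb3a1, a secretoglobin of the upper airways and the called gene with the second highest mean FPKM (698), had 4.31, 14.7 and 14.7 CPM in normoxia and 349, 426 and 647 in hypoxia (adjusted p = 0.00707), and held, although with the tissue score the change was 2.68 (adjusted p = 0.16). Tff2, a trefoil factor of mucus, had 0.55, 0.239 and 0.398 CPM against 5.82, 10.8 and 22.9 (5.03 ± 0.99, adjusted p = 0.00925), lost without normoxia replicate 1 (0.0629) and at 2.55 with the tissue score. Muc5b, an airway mucin, had 7.7, 25.8 and 24 CPM against 97.3, 90.8 and 184 (2.69 ± 0.66, adjusted p = 0.0298), lost without any of the normoxia libraries or hypoxia replicate 2 (up to 0.111) and at 1.04 with the tissue score.

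The groups were apart for all 3. Reg3g, an antibacterial lectin of epithelium, had 19 fragments in all of normoxia and 7578 in hypoxia, a ratio of 358 scaled to library size (95% counting interval 229 to 595), and was the airway gene called with the tissue score (4.17, adjusted p = 0.0486). It was lost without any 1 of the normoxia libraries (0.0544 to 0.0876). Bpifb1, a secreted protein of conducting airways, rose by 5.99 ± 1.36 (adjusted p = 0.0211), lost in 4 of the 6 fits (up to 0.0885) and at 2.43 with the tissue score. Krt5, of airway basal cells, was at 0 fragments in each normoxia library and at 2, 18 and 46 in hypoxia. The share of large airway in each piece of lung is not given in the sources used here, and its part in these rises was not tested beyond the tissue score, which is itself built in part from this list. Genes of motile cilia, another mark of airway, had 0 edgeR calls among 17 (1 at an unadjusted p below 0.05, 0 by DESeq2) and a median of 0.18. Of 14 adipocyte genes Lep, leptin, was called higher, with 0 fragments in normoxia and 51 in hypoxia, at least 15.3-fold higher against a floor of 3 fragments over the normoxia group. The call was lost in 5 of the 6 fits with 1 library left out (0.094 to 0.136), and with the tissue score the fitted change was 2.94 (adjusted p = 0.58).

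Several genes outside the endothelial and mural lists changed firmly. Slc26a10 (chromosome 10, 127171393 to 127180705), of a family of anion exchangers and on the list of ion channels of vessel and airway, had 1.28, 0.574 and 1.06 CPM in normoxia and 15.3, 22.1 and 28.5 in hypoxia (4.48 ± 0.27, adjusted p = 2.69e-07). Its log2 change was 4.14 with the tissue score (adjusted p = 2.28e-05) and its call held. Of the 28 genes on that list 3 were called higher and 0 lower, with a median of 0.24. Ntrk2 (chromosome 13, 58806472 to 59133970), the receptor of brain-derived neurotrophic factor, had 14.6, 15.2 and 16.4 CPM in normoxia and 517, 139 and 455 in hypoxia (4.59 ± 0.58, adjusted p = 0.000449). Hypoxia replicate 1 was lowest of its group and still far above normoxia, the call held, and with the tissue score the change was 4.53 (adjusted p = 0.0173). Ntrk3, the receptor of neurotrophin 3, rose from 1.74, 1.43 and 1.77 CPM to 4.3, 5.16 and 4.74 (1.52 ± 0.24, adjusted p = 0.00258) and held. Of 12 neurotrophins and receptors 3 were called higher and 0 lower.

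Further rises that held and were called with the tissue score were of similar shape. Fam181b had 8.85, 6.26 and 8.09 CPM in normoxia and 33.5, 29.3 and 34.8 in hypoxia (2.07 ± 0.18, adjusted p = 1.69e-05), and Shisa2, an inhibitor of Wnt and FGF receptor maturation, 3.71, 3.2 and 3.4 against 12.9, 13.1 and 11 (1.84 ± 0.18, adjusted p = 3.84e-05). Pde2a, a phosphodiesterase that degrades cyclic AMP and GMP, rose from 8.3, 6.98 and 9.24 CPM to 21.3, 25.9 and 23.1 (1.52 ± 0.18, adjusted p = 0.00024). Gap43, a growth cone protein, Bcl6b, an endothelial repressor, and Tnfaip8l1 rose by 1.24 ± 0.15, 1.03 ± 0.13 and 1.68 ± 0.21 (adjusted p = 0.000279, 0.000305 and 0.000334).

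Among the falls, Ankrd63, an ankyrin repeat protein, had 60, 37.4 and 37.3 CPM in normoxia and 2.48, 3.01 and 0.841 in hypoxia (adjusted p = 1.96e-05). Olfm2, olfactomedin 2, fell from 15.3, 18.8 and 18.6 CPM to 2.69, 3.3 and 2.18 (-2.69 ± 0.32, adjusted p = 0.00024). Esr2, oestrogen receptor β, fell from 5.23, 6.12 and 7.82 CPM to 1.39, 1.86 and 1.38 (-2.05 ± 0.22, adjusted p = 9.52e-05). In all 3 every hypoxia library was under 4 CPM, below every normoxia library. Smaller falls of tightly spaced genes included Ivns1abp (-0.94 ± 0.09, adjusted p = 3.84e-05), the potassium channel gene Kcnk2 (-0.85 ± 0.09, adjusted p = 7.6e-05), the corepressor gene Tle1 (-1.11 ± 0.13, adjusted p = 0.000207) and the transporter gene Slc16a9 (-1.60 ± 0.18, adjusted p = 0.000202). All 7 held and were called with the tissue score. Doc2b, a calcium sensor of exocytosis, fell from 6.56, 22.7 and 8.31 CPM to 0.956, 0.339 and 0.956 and held, without a call with the tissue score (-3.13, adjusted p = 0.102).

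**Figure D5:**
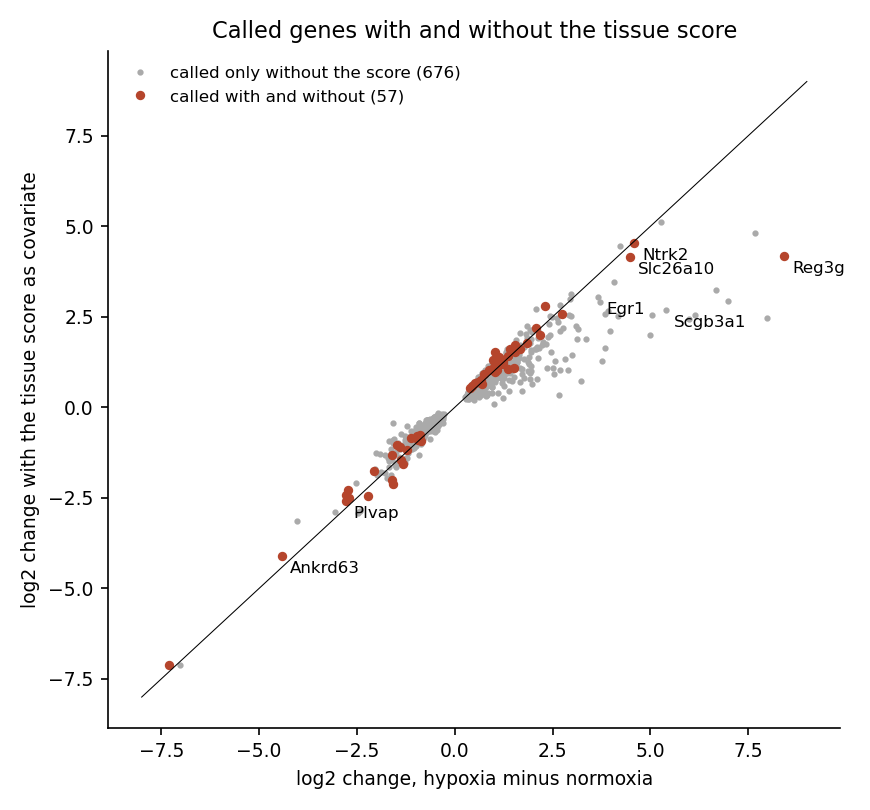
Log2 change of the 733 called genes without (x axis) and with the tissue score as covariate (y axis); the line marks equal values, and coloured points are the 57 called in both fits. Airway genes such as Scgb3a1 and Reg3g lie well below the line, and Plvap, Ankrd63, Slc26a10 and Ntrk2 lie close to it. Scgb3a1 and Reg3g are on a list from which the score was built and the others are not, so the contrast is in part built in.

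Several lists had no edgeR call. Of 32 mitosis and cell cycle genes edgeR called 0 (16 at an unadjusted p below 0.05, 2 by DESeq2), although all 32 had a positive log2 change (median 0.65). In 6 every hypoxia library was higher, where the groups did not overlap for 24.7% of all genes. The list score was -0.25, -0.56 and -0.08 in normoxia and -0.27, 0.29 and 0.67 in hypoxia, so the groups overlapped. Without hypoxia replicate 2 the median was 0.33. EdgeR also called 0 of 24 genes of NRF2 and glutathione defence (5 at an unadjusted p below 0.05, 1 by DESeq2; median 0.01) and 0 of 24 heat shock and ER chaperones (0 and 0; median -0.02). It called 0 of 23 subunits of mitochondrial complex I (1 and 0; median 0.07) and 0 of 14 alveolar type 1 genes (2 and 0; median -0.18). Of 12 arrestins and receptor kinases it called 0 (5 at an unadjusted p below 0.05, 3 by DESeq2; median -0.09). The last list holds the genes that the study's other lines are labelled as lacking: Arrb1 had 474, 464 and 478 CPM in wild type normoxia and 405, 399 and 302 in hypoxia (-0.35 ± 0.12, adjusted p = 0.102), and Arrb2 changed by 0.27 ± 0.20 (adjusted p = 0.511). Of 13 haemoglobin and erythroid genes edgeR called 0 (5 at an unadjusted p below 0.05, 2 by DESeq2; median -0.70). Of 16 genes of iron handling 3 were called higher and 0 lower, where 2.85% of all genes were called higher, and without normoxia replicate 1 the count was 0. Among the 3 was Trf, transferrin, which rose from 499, 487 and 536 CPM to 755, 615 and 804 (0.51 ± 0.10, adjusted p = 0.00807), lost without normoxia replicate 1 (0.0531). Of 1032 distinct genes tested on the 52 lists, 153 (14.8%) were called; the lists were drawn up with earlier results of these data known.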

How the data were processed

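Libraries were made from 1 µg of poly(A) RNA of frozen lung pieces of about 30 mg, per the labels' protocols. The kit leaves strand unmarked, so reads of a gene and an antisense gene that overlap it are counted together. The submitters' processing notes name FastQC, TopHat, Cuffdiff and mm10, without versions. The authors deposited estimated counts of fragments, not normalized, of which 93.3% are whole. FPKM, scaled by gene length and library, was computed and deposited by the authors for the same libraries. The q-value of each of their comparisons, and the test score whose sign was used here, come from Cuffdiff as deposited by the authors.

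Features with the status HIDATA (5 of 23356, Scgb1a1 and Sftpc among them) were dropped, and 20 with FAIL were kept. Rounded counts of all 18 libraries went into 1 edgeR 4.0.16 fit (R 4.3.3): TMM, filterByExpr over 6 groups, quasi-likelihood F-tests, Benjamini-Hochberg adjustment, threshold 0.05. CPM is on the TMM scale. On simulated counts of this comparison (15388 genes, 200 of them changed) edgeR called 25.4% of 1.5-fold, 71.6% of 2-fold and 90.9% of 4-fold changes. Of its calls there, 2.34% were false (DESeq2 17.5%). The simulation drew each gene independently around a common mean, without differences in tissue content between libraries. Its shares therefore do not give the false share among the 733 calls. The authors' deposited table calls 558 of the 733 genes (76.1%) with the same sign. A list score is the mean log2 CPM (prior count 2) of tested members. Coordinates and promoters are RefSeq's, on GRCm38.p6 (mm10); 15300 tested symbols matched. Alternatives were DESeq2 1.42.0, its size factors, no filter, FPKM on the log2 scale (pseudocount 1 or 0.1) in limma 3.58.1, wild type libraries only, a replicate block, haemoglobin genes left out, the tissue score, and each library left out; leaving out the 2 libraries of lowest total was chosen after seeing the data. Intervals and floors reflect counting error alone.

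The comparison, lists and tests were chosen with earlier results of these data known. The rule for named genes takes the 15 highest and 15 lowest changes among called, named genes whose groups do not overlap and whose mean log2 CPM is at least 1, the 10 called genes of highest mean FPKM, the 10 of smallest p in each direction, and of each list the first 3 members and up to 8 called members of smallest p. Not all are shown; some results are not reported here.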

Additional observations from a re-analysis of the deposited data

How the results depend on the processing

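The 733 calls (438 higher, 295 lower) became 1280 with DESeq2 (734 and 546), 59 with the tissue score (36 and 23), 495 with wild type libraries only (339 and 156), and 1455 without the 2 libraries of lowest total, both of other genotypes (807 and 648). With 1 wild type library left out they ran from 209 to 943 (111 to 528 higher, 98 to 415 lower), fewest without normoxia replicate 1. With the replicate block they were 656 (389 and 267). Deviations of same-numbered libraries from their group means had correlations of -0.0632, -0.00375 and 0.0296. Those of libraries with different numbers ran from -0.101 to 0.106. The labels do not say whether the numbers mark a pairing, and with 3 libraries a group these correlations cannot decide it. No called gene named in the report changed direction under any of these fits or the other alternatives run. Uncalled genes did: with the tissue score Edn1 went to 0.59, Vegfa to 0.06, Pdk1 to -0.17, Acta2 to -0.21, Myh6 to -0.66, Pecam1 to 0.05 and Cdh5 to 0.18. With 1 library left out Edn1 ran from -0.35 to 0.17, Ednra from -0.10 to 0.01, Bmpr2 from -0.78 to 0.05, Eln from -0.05 to 0.38, Pecam1 from -0.08 to 0.04 and Cdh5 from -0.14 to 0.08. The cause was not tested. In the simulated counts, with 3 libraries a group, most 1.5-fold changes were missed. Before adjustment 2985 genes had p below 0.05 in the edgeR test.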
